A study of Mus musculus with 6 samples.

Results

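Matrix metalloproteinases (MMPs) are zinc enzymes that cut the proteins of the extracellular matrix, and tissue inhibitors of metalloproteinases (TIMPs) bind their active site and block them. The transcripts of 10 of these genes were examined in H22 tumours, 7 that encode MMPs (Mmp2, Mmp3, Mmp9, Mmp12, Mmp13, Mmp14 and Mmp19) and 3 that encode inhibitors (Timp1, Timp2 and Timp3). They were taken by symbol from the 21720 gene symbols of the deposited table. H22 is a mouse hepatocellular carcinoma line, which was injected under the skin of BALB/c mice that the labels give as wild type. Once tumours had reached about 50 mm3, the control group received 0.5% carboxymethyl cellulose sodium and the luteolin group 200 mg/kg luteolin, a plant flavonoid, each day for 21 days in 0.2 mL, by gavage as the study's methods say. Each group gave 3 RNA-seq libraries of whole tumour tissue, and the comparison asks which MMP and TIMP transcripts differ after treatment with luteolin. The model is 1 cell line grown outside the liver, and host fibroblasts, vessels and leukocytes enter the same RNA as the tumour cells. The labels do not say that the libraries came from separate animals, so the p values below measure the spread between these libraries.

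MMPs are secreted or held at the cell membrane as inactive precursors and become active when their propeptide is cut or displaced. The family is grouped by substrate and structure into gelatinases, stromelysins, collagenases, an elastase of macrophages and membrane-type enzymes. In tumours, MMPs and TIMPs are made by fibroblasts, macrophages, neutrophils and tumour cells, and interleukin-1, tumour necrosis factor and oncostatin M are known inducers. TIMPs inhibit most MMPs, and TIMP3 also inhibits several ADAM and ADAMTS proteases and is itself bound to the matrix.

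Total counts were 61081637 to 80442954 per library, and 15579 to 16767 genes had a count above 0. The counts of the 10 genes ran from 180 (Mmp3 in control replicate 2) to 50083 (Mmp12 in luteolin replicate 3). Log2 levels of all tested genes correlated between libraries of 1 group with Pearson's r of 0.892 to 0.969. Afp, a marker of fetal liver and hepatoma, had 2000 to 4316 counts in every library, whereas Hnf4a, a liver transcription factor, had 0 to 20 counts and was at 0 in 3 of the 6. Luteolin replicate 2 stood apart in the keratinocyte marker list (Krt5, Krt14, Krt10, Krt1, Trp63, Dsg3 and Dsc3), whose summed level was 8256 CPM (counts scaled to the size of the library) there, 366 in luteolin replicate 1, 15.3 in luteolin replicate 3 and 3.23 to 4.34 in the control libraries. Krt5, Krt14, Krt1, Dsg3 and Dsc3 were at 0 in all 3 control libraries.

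Mmp12, Mmp13 and Mmp3 lie in a cluster of 10 MMP genes on chromosome 9. In the order along the chromosome these are Mmp13, Mmp12, Mmp1b, Mmp3, Mmp1a, Mmp10, Mmp8, Mmp27, Mmp20 and Mmp7, with no other protein-coding gene between them. The 120 bases before the start of Mmp13, Mmp12, Mmp3 and Mmp10 are shown. These are the tested genes of the cluster with TGAGTCA or TGACTCA in an upstream window. Capitals mark TGAGTCA or its reverse complement TGACTCA, the letters that the FOS and JUN dimer AP-1 is known to bind, and TATAAA, the letters of a TATA box. The sequences are from RefSeq on GRCm38.p6, all on the plus strand, at chr9:7272394-7272513 for Mmp13, chr9:7347254-7347373 for the second of 2 annotated starts of Mmp12, chr9:7445702-7445821 for Mmp3 and chr9:7502222-7502341 for Mmp10.
Mmp13: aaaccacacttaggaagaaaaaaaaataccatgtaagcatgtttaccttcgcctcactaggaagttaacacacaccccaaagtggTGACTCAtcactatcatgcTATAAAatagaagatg
Mmp12: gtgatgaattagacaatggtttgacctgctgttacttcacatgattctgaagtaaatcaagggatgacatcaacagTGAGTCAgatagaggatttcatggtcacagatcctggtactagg
Mmp3: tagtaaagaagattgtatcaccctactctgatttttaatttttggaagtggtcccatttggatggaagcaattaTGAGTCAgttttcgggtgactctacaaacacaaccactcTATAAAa
Mmp10: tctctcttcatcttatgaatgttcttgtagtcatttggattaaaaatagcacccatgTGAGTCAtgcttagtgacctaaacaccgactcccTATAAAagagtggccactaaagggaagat
The AP-1 letters began 35 bases before the start in Mmp13, 44 in Mmp12, 46 in Mmp3 and 63 in Mmp10. Upstream windows of 250 bases were found for 22 of the 27 MMP and TIMP genes looked for, 7 of the 10 described here among them (Mmp2, Mmp9 and Mmp19 had none), and some genes had more than 1 start. The first start of Mmp12 had neither kind of letters in its window, nor had Mmp8 and Mmp27, which were tested too. Mmp1a and the first start of Mmp7 had both kinds, and these genes were at 0 counts in all libraries. The AP-1 letters stood in the windows of 7 genes, and all 7 (Mmp13, Mmp12, Mmp1b, Mmp3, Mmp1a, Mmp10 and Mmp7) belong to the chromosome 9 cluster. Among 32851 upstream windows of all genes, 4.46% held these letters on either strand, 12.4% held TATAAA on either strand and 0.721% held both. The letters in a window are a description of the sequence and do not show that a factor bound there.

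Of the 10 genes, 5 rose with luteolin at an adjusted p under 0.05, and none fell. These were Mmp2, Mmp3, Mmp14, Mmp19 and Timp3, with fold changes from 2.28 to 30.1. Among the 14963 genes tested, 1.34% were higher and 0.187% lower at this threshold (quasi-likelihood test of edgeR, Benjamini-Hochberg adjustment). With the cut-off of the study, which is a fold over 2 and an unadjusted p under 0.05 (the study's threshold from here on), the same 5 were higher and none lower, against 11.3% of all tested genes higher and 1.52% lower. Every luteolin library lay above every control library for 6 of the 10, the 5 called genes and Mmp9, and for 15.9% of all genes, while none of the 10 and 12.8% of all genes lay below. All 10 fitted log2 fold changes were above 0, with a median of 1.38, and the median over all tested genes was -0.01. In whole tumour tissue, a change in the number of cells that make a transcript and a change in the transcript per cell cannot be told apart.

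The calls at the adjusted threshold were lost when certain libraries were left out, those at the study's threshold were not. No member, and no gene of all those tested, was called at an adjusted p under 0.05 without control replicate 1, 2 or 3 or without luteolin replicate 1, where 1907 to 2462 genes still fell under 0.05 before adjustment. In the fits that left out luteolin replicate 2 or 3, 4 of the 10 genes were called, Mmp14 being lost. The 5 called genes stayed past the study's threshold with each of the 6 libraries left out in turn, and 7 of the 10 passed it without luteolin replicate 2. In that last fit, 1139 of 15137 tested genes were higher and 278 lower at this threshold.

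**Figure D1:**
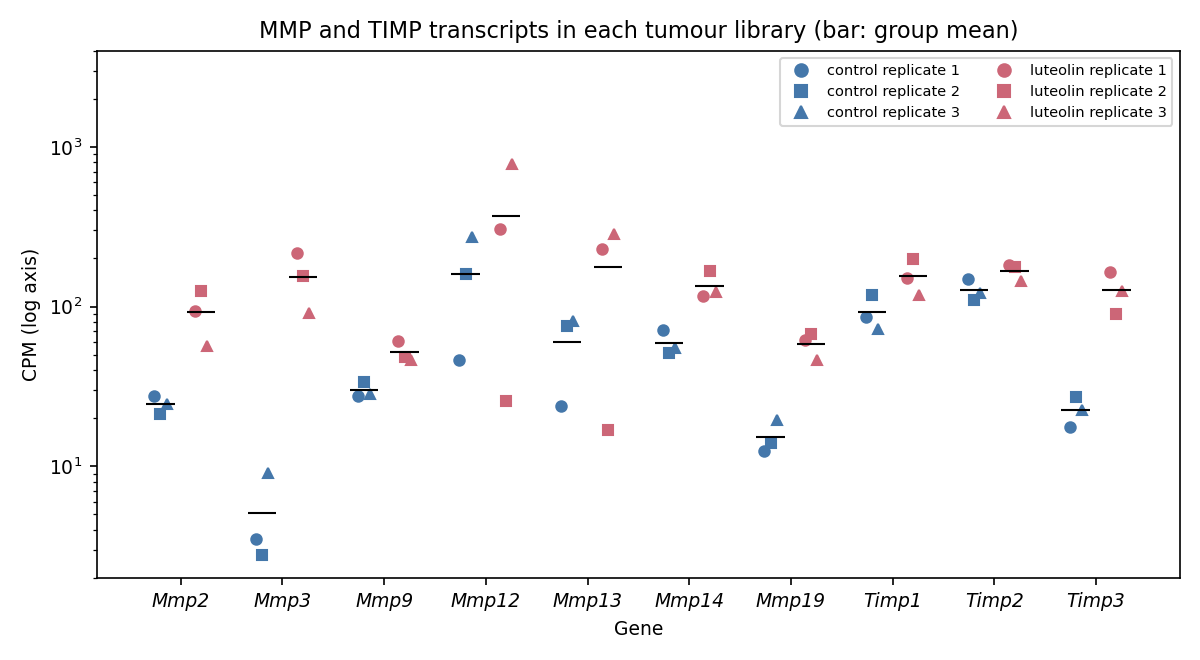
Level of each MMP and TIMP transcript in the 6 libraries, in CPM on a log axis, with control libraries in blue, luteolin libraries in red, replicates 1 to 3 as circles, squares and triangles, and a bar at each group mean. The red points lie above all blue points for Mmp2, Mmp3, Mmp9, Mmp14, Mmp19 and Timp3, while luteolin replicate 2 lies below all control libraries for Mmp12 and Mmp13.

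The gelatinases Mmp2 and Mmp9 cut denatured collagen and the type IV collagen of basement membranes, and both were higher in the luteolin libraries, Mmp2 more so. Mmp2 is made mainly by fibroblasts and other stromal cells. Its level was 27.5, 21.2 and 24.7 CPM in the control libraries (replicates 1, 2 and 3, here and below) and 93.6, 126 and 56.5 CPM in the luteolin libraries. The lowest luteolin library was still above the highest control library. The means were 24.5 ± 3.13 and 91.9 ± 34.6 CPM (SD, n = 3 each), a 3.76-fold rise (log2 1.91, SE 0.30, adjusted p = 0.0429 by edgeR's quasi-likelihood test). The rise was smallest without luteolin replicate 2, at log2 1.63, and largest without luteolin replicate 3, at 2.11. Its adjusted p was 0.134 to 0.217 in the 4 fits without a control library or without luteolin replicate 1.

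Mmp9, which neutrophils store in granules and macrophages secrete, was at 27.5, 33.8 and 28.3 CPM in the control libraries and at 60.8, 48.3 and 46.4 CPM in the luteolin libraries. The groups did not overlap, and within each group the libraries lay close together. The means were 29.8 ± 3.43 and 51.8 ± 7.83 CPM (SD, n = 3 each), 1.74-fold, with log2 0.80 (SE 0.18, unadjusted p = 0.00323) and an adjusted p of 0.0845 from edgeR's quasi-likelihood test, so the difference did not pass. With DESeq2 it passed at an adjusted p of 0.00365, and with limma's voom and quality weights at 0.00816. The ratio of Mmp9 to Timp1, the inhibitor that binds the MMP9 precursor, was 0.317, 0.285 and 0.391 in the control and 0.401, 0.245 and 0.395 in the luteolin libraries, which overlapped. The ratio of Mmp2 to Timp2, the inhibitor that takes part in MMP2 activation, was 0.186, 0.192 and 0.202 in the control and 0.517, 0.713 and 0.389 in the luteolin libraries, with no overlap.

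Mmp3 encodes stromelysin-1, which cuts proteoglycans, fibronectin and laminin and activates other MMP precursors, and it had the largest difference of the 10. Its level was 3.48, 2.78 and 9.10 CPM in the control libraries and 215, 156 and 90.9 CPM in the luteolin libraries. Even the lowest luteolin library was far above the highest control library, control replicate 3. The means were 5.12 ± 3.47 and 154 ± 62.1 CPM (SD, n = 3 each), a 30.1-fold rise (log2 4.91, SE 0.59, adjusted p = 0.0331 by edgeR's quasi-likelihood test). The log2 value ran from 4.59 without luteolin replicate 1 to 5.62 without control replicate 3, with adjusted p values of 0.124 to 0.207 in the 4 fits without a control library or without luteolin replicate 1.

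Mmp10, a gene of the same cluster that encodes stromelysin-2, also passed the adjusted threshold, though it is not among the 10 genes. Its counts were 44, 83 and 53 in the control libraries and 1634, 591 and 712 in the luteolin libraries, with no overlap. The means were 0.911 ± 0.335 and 14.96 ± 10.3 CPM (SD, n = 3 each), with log2 4.04 (SE 0.61, adjusted p = 0.0394 by edgeR's quasi-likelihood test). Of the 50-base words of its longest transcript, 8.37% also occur in that of Mmp3, and 7.99% of the words of Mmp3 occur in that of Mmp10. Counts of these stretches could thus have been split between the pair. Mmp3 had 2.17 to 11.1 times the CPM of Mmp10 in the control libraries and 8.06 to 22.1 times in the luteolin libraries. The other 9 of the 10 genes shared no such word, read on the same strand, with another MMP or TIMP gene. In GENCODE M21, 2.17% of the exon bases of Mmp12 also lie in exons of Mmp1b on the opposite strand. Mmp1b had at most 16 counts in a library.

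Mmp12 and Mmp13, at the start of the cluster, did not pass either threshold and had the widest spread. Mmp12 encodes macrophage elastase. Its level was 46.4, 160 and 275 CPM in the control libraries and 306, 25.6 and 784 CPM in the luteolin libraries. Luteolin replicate 2 was below all control libraries and the other two above them all. The means were 160 ± 114 and 372 ± 383 CPM (SD, n = 3 each), with log2 1.21 (SE 1.08, unadjusted p = 0.300, adjusted p = 0.589 by edgeR's quasi-likelihood test). Without luteolin replicate 3 the log2 value was 0.05. Without luteolin replicate 2 it was 1.79, at an unadjusted p of 0.0376 and an adjusted p of 0.262.

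Mmp13 encodes collagenase-3, the main interstitial collagenase of mice, which cuts fibrillar collagens. Its level was 23.9, 75.7 and 81.6 CPM in the control libraries and 228, 16.9 and 285 CPM in the luteolin libraries. The pattern followed that of Mmp12, with luteolin replicate 2 lowest of all and luteolin replicate 3 highest. The means were 60.4 ± 31.8 and 177 ± 141 CPM (SD, n = 3 each), with log2 1.55 (SE 0.92, unadjusted p = 0.138, adjusted p = 0.404 by edgeR's quasi-likelihood test). Without luteolin replicate 2 the log2 value was 2.11, at an unadjusted p of 0.00333 and an adjusted p of 0.0834. By voom with quality weights it was 1.67, at an adjusted p of 0.0449. The ratio of Mmp12 to Mmp13 was 1.94, 2.11 and 3.36 in the control and 1.34, 1.51 and 2.75 in the luteolin libraries, a narrower range than that of either gene.

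Both genes are poor in GC, and the libraries differed in how their levels followed GC content. GC made up 40.3% of Mmp12 (the 6.70th percentile of tested genes) and 41.7% of Mmp13 (the 10.9th percentile), against a median of 49.9%. Over 14635 tested genes, the deviation of a library from the mean of all 6 correlated with GC content at a Spearman's rho of 0.42, -0.17 and -0.52 in the control libraries and -0.18, 0.43 and -0.36 in the luteolin libraries. In each group, the order of the libraries for Mmp12 and Mmp13 was the reverse of this order. With offsets for GC content and length, a setting chosen after the data had been seen, the log2 range of Mmp12 over the control libraries narrowed from 2.56 to 1.61 and over the luteolin libraries from 4.94 to 3.95, and the groups still overlapped. The corresponding ranges of Mmp13 went from 1.77 to 1.14 and from 4.07 to 3.27. Those of Mmp9 widened, from 0.298 to 0.535 and from 0.390 to 0.590. The range of Mmp19 widened over the luteolin libraries, from 0.538 to 0.624, and narrowed over the control libraries. Ranges of the remaining members narrowed in both groups. The differences were then log2 1.27 for Mmp12 (adjusted p = 0.398) and 1.56 for Mmp13 (adjusted p = 0.231) by edgeR's quasi-likelihood test, and the 5 called genes stayed called.

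**Figure D2:**
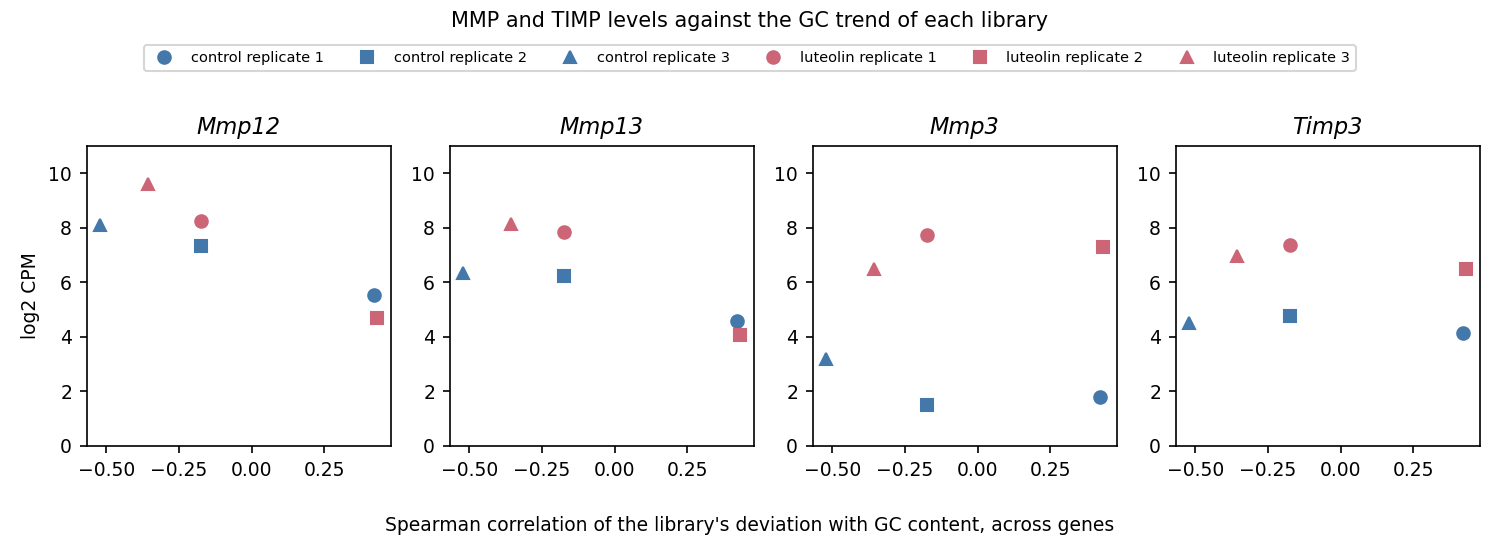
Log2 CPM of Mmp12, Mmp13, Mmp3 and Timp3 in each library against the Spearman correlation, across genes, of that library's deviation with GC content, with control in blue and luteolin in red. Mmp12 and Mmp13 are lowest in the pair of libraries on the right, control replicate 1 and luteolin replicate 2, whereas for Mmp3 and Timp3 all luteolin points lie above all control points.

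Along the cluster, the luteolin libraries did not stand in 1 order. Mmp8, the collagenase of neutrophils, had 12, 26 and 76 counts in the control libraries and 216, 68 and 204 in the luteolin libraries, where luteolin replicate 2 fell inside the control range. Its log2 value of 2.10 (SE 0.88) passed the study's threshold at an unadjusted p of 0.0479, with an adjusted p of 0.239 by edgeR's quasi-likelihood test. Mmp27 had only 8 to 158 counts per library, and Mmp1a, Mmp20 and Mmp7 were at 0 in all libraries. Mmp1b, with up to 16 counts, was not tested. Thus Mmp3 and Mmp10 had luteolin replicate 2 far above the control libraries, and Mmp12 and Mmp13 had it below them. The difference between these pairs of genes was not tested.

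**Figure D3:**
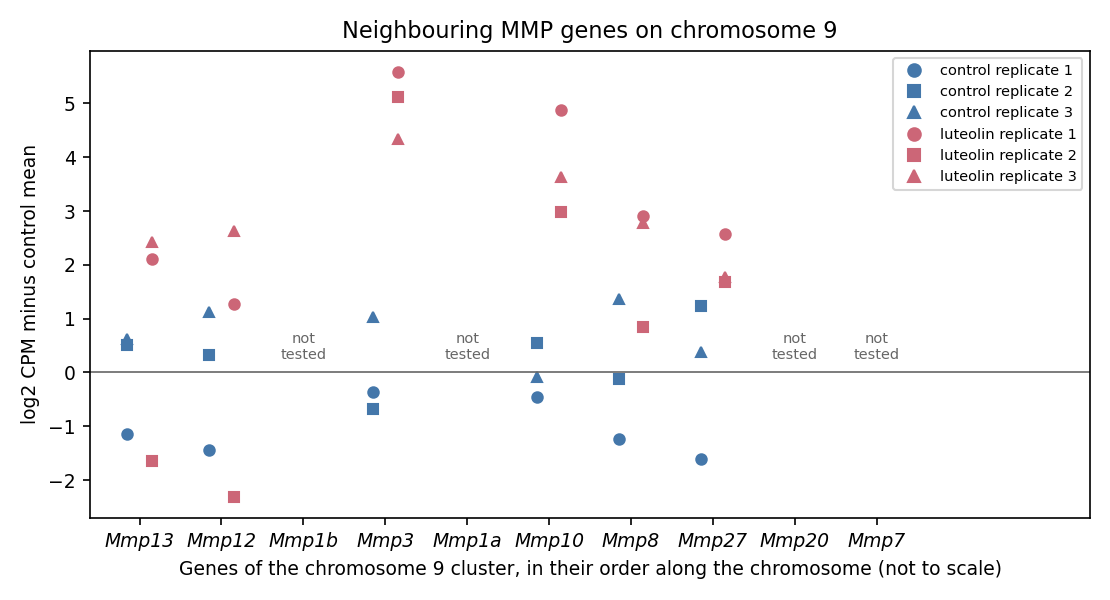
Log2 CPM minus the control mean for the MMP genes of the chromosome 9 cluster, placed in their order along the chromosome and not to scale, with control in blue and luteolin in red and replicates 1 to 3 as circles, squares and triangles. The luteolin points of Mmp3 and Mmp10 lie well above the control points, and the square of luteolin replicate 2 lies lowest for Mmp13 and Mmp12.

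Mmp14 and Mmp19 also rose. Mmp14 encodes a membrane-type MMP that cuts collagen at the cell surface and activates the MMP2 precursor together with TIMP2. Its level was 71.0, 51.5 and 55.2 CPM in the control libraries and 116, 166 and 123 CPM in the luteolin libraries, with no overlap. The means were 59.2 ± 10.4 and 135 ± 27.3 CPM (SD, n = 3 each), a 2.28-fold rise (log2 1.19, SE 0.21, adjusted p = 0.0493 by edgeR's quasi-likelihood test). This was the call nearest to the threshold, and it was lost whichever 1 library was left out, with adjusted p values of 0.0527 without luteolin replicate 2, 0.0630 without luteolin replicate 3 and 0.133 to 0.239 without each of the others. Without the filter on low counts the adjusted p was 0.0537. The log2 value stayed between 1.03 and 1.31 in these fits.

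Mmp19 encodes a secreted MMP that cuts components of basement membranes. Its level was 12.4, 13.9 and 19.5 CPM in the control libraries and 61.9, 67.2 and 46.2 CPM in the luteolin libraries. The groups were well separated. The means were 15.3 ± 3.78 and 58.4 ± 10.9 CPM (SD, n = 3 each), a 3.83-fold rise (log2 1.94, SE 0.25, adjusted p = 0.0331 by edgeR's quasi-likelihood test). Its adjusted p was 0.124 to 0.207 in the 4 fits without a control library or without luteolin replicate 1. In GENCODE M21, 22.3% of the exon bases of Mmp19 also lie in exons of Tmem198b on the opposite strand, and the sources used here do not say whether strand was used in counting. Tmem198b had 1687 to 2806 counts in the control libraries and 1708 to 2564 in the luteolin libraries, ranges that overlapped.

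Of the inhibitors, Timp3 rose, while Timp1 and Timp2 were higher in the luteolin group by less and did not pass the adjusted threshold. Timp3 was at 17.6, 27.1 and 22.5 CPM in the control libraries and at 165, 90.1 and 125 CPM in the luteolin libraries. No luteolin library came near the control range. The means were 22.4 ± 4.74 and 127 ± 37.5 CPM (SD, n = 3 each), a 5.64-fold rise (log2 2.50, SE 0.28, adjusted p = 0.0331 by edgeR's quasi-likelihood test). The log2 value ran from 2.26 without luteolin replicate 1 to 2.71 without luteolin replicate 2, and its adjusted p was 0.117 to 0.207 in the 4 fits without a control library or without luteolin replicate 1. Of its exon bases, 21.3% also lie in exons of Syn3 on the opposite strand, for which 6 to 54 counts were listed per library.

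Timp1, which inhibits most secreted MMPs and is induced by inflammatory cytokines, was at 86.6, 118 and 72.3 CPM in the control libraries and at 151, 197 and 117 CPM in the luteolin libraries. Luteolin replicate 3 lay just below control replicate 2. The means were 92.4 ± 23.6 and 155 ± 40.1 CPM (SD, n = 3 each), 1.68-fold (log2 0.75, SE 0.26, unadjusted p = 0.0236, adjusted p = 0.179 by edgeR's quasi-likelihood test). Timp2, widely made by stromal cells, was at 148, 111 and 122 CPM in the control libraries and at 181, 176 and 145 CPM in the luteolin libraries. Luteolin replicate 3 fell just below control replicate 1. The means were 127 ± 19.1 and 167 ± 19.4 CPM (SD, n = 3 each), 1.32-fold (log2 0.40, SE 0.17, unadjusted p = 0.0519, adjusted p = 0.249 by edgeR's quasi-likelihood test). The adjusted p of Timp2 was 0.0159 by voom with quality weights. With the GC and length offsets, the groups no longer overlapped for Timp1 or Timp2, and the adjusted p values were 0.0722 and 0.120 by edgeR's quasi-likelihood test. The ratio of Timp3 to Timp2 was 0.119, 0.245 and 0.185 in the control and 0.911, 0.512 and 0.858 in the luteolin libraries.

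Enzyme and inhibitor transcripts were also summed in each library, with no test. The 7 MMP genes came to 212, 358 and 493 CPM in the control libraries and to 1082, 606 and 1432 CPM in the luteolin libraries, while the 3 TIMP genes came to 252, 256 and 217 CPM and to 497, 463 and 387 CPM. Both sums were higher in every luteolin library. The ratio of the MMP sum to the TIMP sum was 0.841, 1.40 and 2.27 in the control and 2.17, 1.31 and 3.70 in the luteolin libraries, and the groups overlapped (1.50 ± 0.722 and 2.39 ± 1.21, SD, n = 3 each). Mmp12 alone made up 4.22% of the MMP sum in luteolin replicate 2 and 55.7% in control replicate 3. Without Mmp12, which was left out after its share had been seen, the ratio was 0.657, 0.776 and 1.01 in the control and 1.56, 1.25 and 1.67 in the luteolin libraries, which did not overlap (0.813 ± 0.178 and 1.50 ± 0.218). The difference between the group means of the ratio over all 7 MMP genes was 0.890, and it was 0.237 without luteolin replicate 3, 0.558 without control replicate 1 and 1.43 without luteolin replicate 2. Sums of CPM give long transcripts more weight, and transcript levels are not protein or activity.

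Levels of different genes were compared as CPM per kb of exon, counting every base annotated as exon in any transcript of the gene. This length was 8144 bases for Timp3, 7237 for Mmp12 and 5960 for Mmp14. The longest single transcripts of these genes are shorter, with 4673, 4425 and 3189 different 50-base words. The order below and the differences between neighbours hold for this length only, and another length could change them. In the control group Timp1 was highest, at 104 ± 26.6 CPM per kb (SD, n = 3), and the other 9 followed as Timp2 (32.6 ± 4.91), Mmp13 (22.6 ± 11.9), Mmp12 (22.1 ± 15.8), Mmp14 (9.94 ± 1.74), Mmp9 (8.43 ± 0.969), Mmp2 (7.25 ± 0.930), Mmp19 (4.32 ± 1.07), Mmp3 (2.84 ± 1.92) and Timp3 (2.75 ± 0.582). Only Timp1 from Timp2 and Mmp2 from Mmp19 differed beyond the SDs among neighbours in this order. In the luteolin group Timp1 was again highest, at 175 ± 45.2 CPM per kb, followed by Mmp3 (85.5 ± 34.5), Mmp13 (66.1 ± 52.9), Mmp12 (51.4 ± 53.0), Timp2 (43.0 ± 4.97), Mmp2 (27.3 ± 10.3), Mmp14 (22.7 ± 4.58), Mmp19 (16.5 ± 3.08), Timp3 (15.5 ± 4.60) and Mmp9 (14.6 ± 2.21). Here Timp1 from Mmp3 and Timp2 from Mmp2 differed beyond the SDs, and no other neighbours did. By this measure Mmp3 moved from ninth to second place, and Mmp9 from sixth to last.

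The other 17 MMP and TIMP genes looked up were mostly rare. The filter on low counts kept 10 of them, and Mmp1a, Mmp1b, Mmp7, Mmp16, Mmp20, Mmp21 and Timp4 were not tested. Mmp10 was called at an adjusted p under 0.05, and Mmp8, Mmp10 and Mmp25 passed the study's threshold. The shares of all tested genes higher at these thresholds were 1.34% and 11.3%. None of the 10 was lower at either, against 0.187% and 1.52% of all tested genes, and the median log2 was 1.17. Without luteolin replicate 2, 3 were higher and 1 lower at the study's threshold, Mmp24 at log2 -1.02, and the median was 0.67. Of all 15137 genes tested in that fit, 1139 were higher and 278 lower. Mmp25, which encodes a membrane-anchored MMP of leukocytes, was at 2.55, 2.97 and 2.62 CPM in the control libraries and at 6.14, 19.1 and 6.65 CPM in the luteolin libraries, with no overlap. Its log2 value was 1.97 (SE 0.50, unadjusted p = 0.00597, adjusted p = 0.105 by edgeR's quasi-likelihood test), and 1.26 without luteolin replicate 2. Mmp24, a membrane-type MMP, and Mmp11, stromelysin-3, were chosen after their values had been seen because every luteolin library lay below every control library. Over all tested genes, 12.8% lay below in this way. For 4 of these 10 genes, and for 15.9% of all genes, every luteolin library lay above. Mmp24 was at 4.15, 6.24 and 4.76 CPM against 2.11, 2.82 and 2.80 CPM, and Mmp11 at 44.3, 35.5 and 33.1 CPM against 27.9, 31.0 and 28.6 CPM. Neither passed, with log2 -0.97 (adjusted p = 0.187) and -0.37 (adjusted p = 0.301) by edgeR's quasi-likelihood test.

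**Figure D4:**
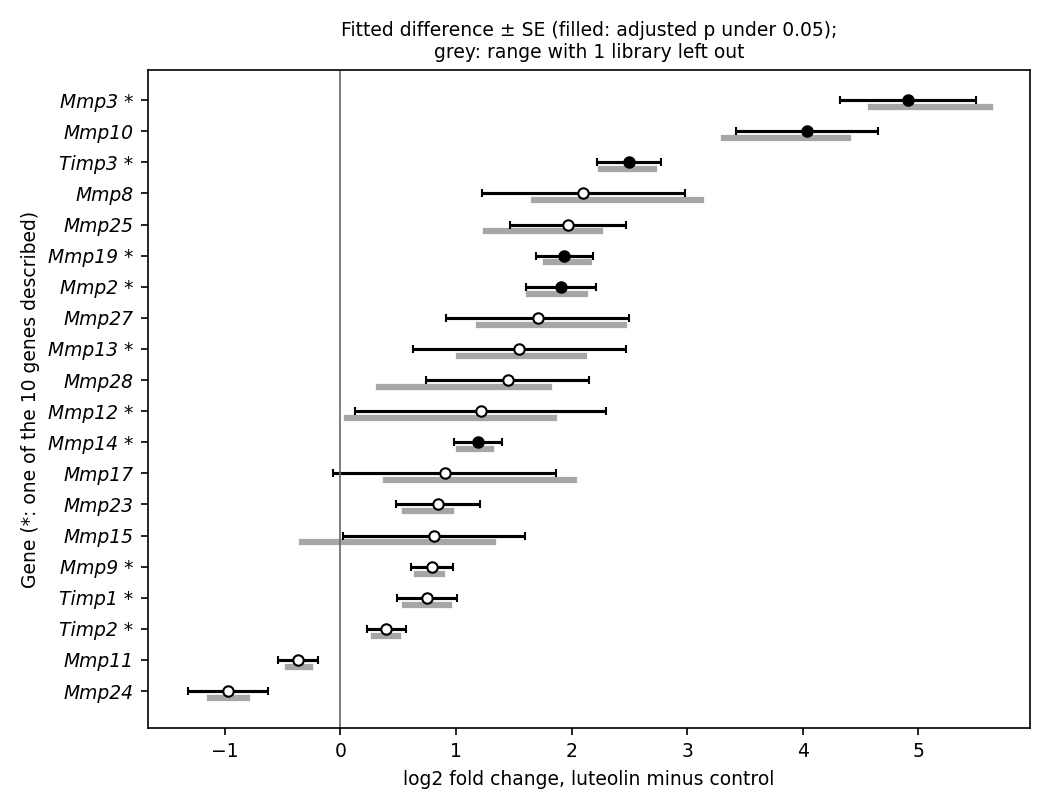
Fitted log2 fold change, luteolin minus control, of the 20 MMP and TIMP genes tested, with standard errors as black bars, the range over the 6 fits with 1 library left out in grey, and filled points at an adjusted p under 0.05. Mmp3 and Mmp10 lie highest, Mmp24 and Mmp11 lie below 0, and the grey bar of Mmp12 begins near 0.

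The plasminogen system and other regulators of MMP activity were examined next, since plasmin can cut MMP precursors. Of the 17 genes of this list, 3 rose at an adjusted p under 0.05 and 8 were higher at the study's threshold. The shares of all tested genes were 1.34% and 11.3%. None of the 17 was lower at either, against 0.187% and 1.52% of all tested genes, and the median log2 was 0.95. The largest difference among those named was that of Serpinb2, an inhibitor of plasminogen activators, at 0.967 ± 0.285 and 42.4 ± 36.3 CPM (SD, n = 3 each, log2 5.45, adjusted p = 0.0331 by edgeR's quasi-likelihood test). Plaur, the urokinase receptor, rose from 81.5 ± 16.7 to 173 ± 6.79 CPM (log2 1.08, adjusted p = 0.0470). Thbs1, thrombospondin-1, was at 91.8 ± 15.5 and 177 ± 14.4 CPM (log2 0.95, adjusted p = 0.0531) and did not pass.

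Among 14 ADAM and ADAMTS proteases, relatives of the MMPs, 3 rose at an adjusted p under 0.05 and 5 were higher at the study's threshold. The shares of all tested genes were 1.34% and 11.3%. None of the 14 was lower at either, against 0.187% and 1.52% of all tested genes, and the median log2 was 0.75. Adamts2, which removes the propeptide of fibrillar procollagens, rose from 18.3 ± 1.84 to 63.9 ± 13.6 CPM (SD, n = 3 each, log2 1.81, adjusted p = 0.0331 by edgeR's quasi-likelihood test). Adam8, a protease of leukocytes, rose from 56.1 ± 5.33 to 180 ± 40.8 CPM (log2 1.68, adjusted p = 0.0331). Adamts15 rose from 1.07 ± 0.362 to 10.8 ± 5.57 CPM (log2 3.33, adjusted p = 0.0469 by the same test). Adamts5, an aggrecanase that TIMP3 inhibits, was at 2.22 ± 0.226 and 12.7 ± 6.49 CPM (log2 2.51, adjusted p = 0.0620). It passed the study's threshold and not the adjusted one.

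Among 10 cytokines and growth factors known to induce MMPs, 1 rose at an adjusted p under 0.05 and 5 were higher at the study's threshold. The shares of all tested genes were 1.34% and 11.3%. None of the 10 was lower at either, against 0.187% and 1.52% of all tested genes, and the median log2 was 1.44. Il1b, which encodes interleukin-1 beta, was at 14.5, 16.8 and 11.1 CPM in the control libraries and at 165, 122 and 57.5 CPM in the luteolin libraries (log2 3.02, SE 0.41, adjusted p = 0.0331 by edgeR's quasi-likelihood test). The groups did not overlap. The luteolin libraries stood in the same order as for Mmp3, and the control libraries in the reverse order. A link between these genes was not tested. Tnf (log2 2.42, adjusted p = 0.0505), Osm, which encodes oncostatin M (2.66, adjusted p = 0.0547), and Il1a (1.32, adjusted p = 0.153) did not pass the adjusted threshold by this test. Each of them passed the study's threshold. Of 13 transcription factors that act on MMP promoters, AP-1 and ETS members among them, none was called at an adjusted p under 0.05. At the study's threshold 2 were higher, a share little above the 11.3% of all tested genes. The median log2 of the list was 0.40. Without luteolin replicate 2 the median was 0.24, with 2 still higher, against 1139 of the 15137 genes tested in that fit. The smallest p values belonged to Fos (log2 1.75, adjusted p = 0.0723), Jun (0.84, adjusted p = 0.0791), Ets2 (0.91, adjusted p = 0.0976) and Fosb (1.36, adjusted p = 0.122) by edgeR's quasi-likelihood test.

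Of 20 genes for matrix proteins, many of them MMP substrates, 3 rose at an adjusted p under 0.05 and 10 were higher at the study's threshold. The shares of all tested genes were 1.34% and 11.3%. None of the 20 was lower at either, against 0.187% and 1.52% of all tested genes, and the median log2 was 1.07. Without luteolin replicate 2, 7 were higher at the study's threshold, against 1139 of all 15137 genes tested, and the median was 0.71. Col5a1, a chain of type V collagen, rose from 65.7 ± 7.58 to 207 ± 39.3 CPM (SD, n = 3 each, log2 1.66, adjusted p = 0.0331 by edgeR's quasi-likelihood test). Bgn, the proteoglycan biglycan, rose from 178 ± 10.7 to 456 ± 102 CPM (log2 1.36, adjusted p = 0.0332), and Tnc, tenascin-C, from 137 ± 9.11 to 590 ± 273 CPM (log2 2.11, adjusted p = 0.0450). Sparc was at 370 ± 9.84 and 721 ± 159 CPM (log2 0.96, adjusted p = 0.0612) and did not pass. Spp1, osteopontin, was the 1 gene of this list with all luteolin libraries below all control libraries, as seen after its values were known. It was at 2325 ± 190 and 1221 ± 394 CPM (log2 -0.93, adjusted p = 0.101 by the same test). All luteolin libraries lay above all control libraries for 10 of the 20. Over all tested genes, 12.8% lay below in this way and 15.9% above. As for all genes, no call of these lists at an adjusted p under 0.05 held when a control library or luteolin replicate 1 was left out.

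**Figure D5:**
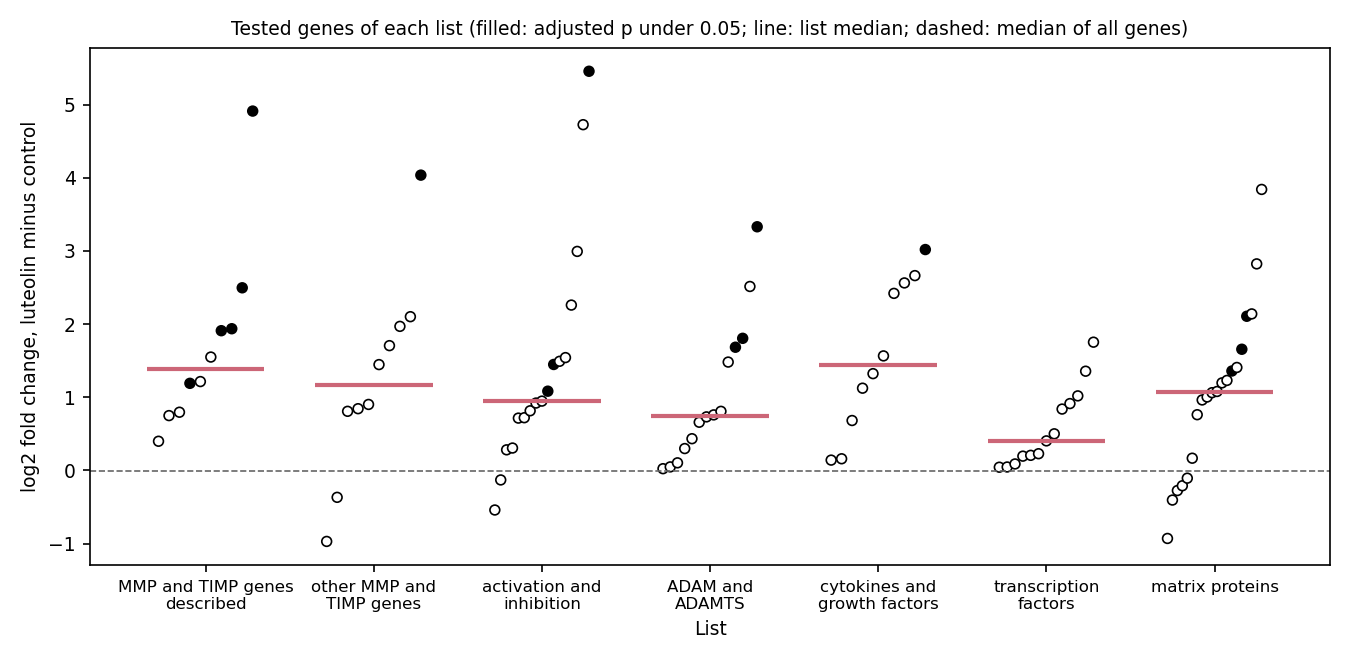
Fitted log2 fold change, luteolin minus control, of each tested gene of the 10 MMP and TIMP genes, the other family members and 5 related lists, with filled points at an adjusted p under 0.05, a red line at each list's median and a dashed line at the median of all genes. The list medians run from 0.40 for transcription factors to 1.44 for cytokines and growth factors, and no filled point lies below the dashed line.

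Summed markers of several cell types that can make these enzymes and inhibitors were higher in the luteolin libraries as well. The summed level of 7 fibroblast markers (Pdgfra, Pdgfrb and others) was 110 to 153 CPM in the control libraries and 260 to 453 CPM in the luteolin libraries. At the study's threshold 5 of 7 were higher, against 11.3% of all tested genes. Pdgfra (log2 0.83) did not pass it. Fap was lower in the luteolin group, at 5.59 ± 4.84 and 4.35 ± 1.43 CPM (SD, n = 3 each, log2 -0.36, adjusted p = 0.836 by edgeR's quasi-likelihood test). For 7 macrophage markers (Adgre1, Csf1r and others) the sums were 656 to 755 and 1179 to 1353 CPM, with 2 of 7 higher. For 8 neutrophil markers they were 18.7 to 21.2 and 86.7 to 181 CPM, with 4 of the 6 tested higher and Ngp and Camp at 0 in all control libraries. In the luteolin libraries Ngp had 4, 0 and 544 counts and Camp 0, 7 and 100, and Ly6g was at 0 in luteolin replicate 1 (log2 -0.57, adjusted p = 0.861 by edgeR's quasi-likelihood test). Thus the fibroblast, macrophage and neutrophil sums did not overlap between the groups. The sums of 6 T cell markers were 7.85 to 10.5 and 32.9 to 57.1 CPM, with 6 of 6 higher. Those of 6 endothelial markers were 86.1 to 107 and 100 to 265 CPM, which overlapped, with 2 of 6 higher and none without luteolin replicate 2. All 6 keratinocyte markers tested were higher at the study's threshold and none was called at an adjusted p under 0.05, with the sums given above. Muscle markers (382 to 940 and 197 to 958 CPM) and adipocyte markers (0 to 10.5 and 0.313 to 61.8 CPM, Lep being at 0 in all control libraries) overlapped, as did the hepatoma markers (44.3 to 131 and 69.4 to 173 CPM), with none past the study's threshold. Without luteolin replicate 2, 2 of the 5 muscle markers were lower at the study's threshold, with a median log2 of -0.97. In that fit, 278 of all 15137 genes tested were lower. Afp was at 59.4, 66.7 and 43.4 CPM in the control libraries and at 32.7, 41.8 and 38.8 CPM in the luteolin libraries, all of them lower (log2 -0.58, unadjusted p = 0.0269, adjusted p = 0.187). The part of these cells in the MMP and TIMP differences was not tested.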

How the data were processed

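RNA-seq libraries of H22 tumour tissue were analysed, 3 of the control and 3 of the luteolin group, with no column unused. The table the authors deposited gives a whole number for each symbol in each library, unscaled. These values of the authors were taken as estimated counts as deposited, because 44.8% of those from 1 to 40 were multiples of 4 and 1 unit need not be 1 read pair. The submitters' processing notes name bcl2fastq 2.0, HISAT2, StringTie, DESeq2 and the builds mm39 and rn6, without their roles. The labels name an RNeasy and a SMARTer kit, the paper Trizol and TruSeq. Counts were compared in R 4.3.3 with edgeR 4.0.16 (TMM, filterByExpr, quasi-likelihood test, no covariates, Benjamini-Hochberg adjustment over the 14963 genes tested). CPM were scaled to TMM-normalized totals, and a prior count of 2 was used for log2 levels. An exact permutation test of 3 libraries against 3 cannot go below p = 0.1 and was not used. Alternatives were DESeq2 1.42.0, voom of limma 3.58.1, RLE and upper-quartile scaling, other filters, values divided by 4, the replicate block and each library left out. Exon lengths and overlaps came from GENCODE M21 on GRCm38, whose build differs from those named, so positions are given only for the RefSeq upstream windows, on GRCm38.p6. The pipeline was tested on simulated data. All 10 MMP and TIMP genes are named, the other family members that passed a threshold, and up to 4 genes with the smallest p in each related list. 1 gene selected in this way is left unreported. The genes and lists were chosen with earlier results of these data known.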

Additional observations from a re-analysis of the deposited data

How the results depend on the processing

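All 10 log2 fold changes stayed above 0 in each of the 15 alternatives, and the numbers of MMP and TIMP genes past the study's threshold stayed at 5 higher and 0 lower in all but 2, with 6 higher by voom and 7 without luteolin replicate 2. At an adjusted p under 0.05, the 5 genes became 8 by limma's voom (which weights samples by quality), 0 with the replicate block, and 0 to 4 with 1 library left out. The 200 genes higher among all tested became 1543 with DESeq2, 1886 with voom, 345 with a minimum of 10 counts in every library, 326 with values divided by 4, 637 with offsets for GC content and length (chosen after seeing the data), 34 with the replicate block and 0 to 276 with 1 library left out. The 28 genes lower became 415, 1311, 47, 45, 270 and 1 in the same settings and 0 to 36 with 1 library left out. The 227 genes lower at the study's threshold became 498 with voom and 140 to 305 with 1 library left out. Each fit that leaves 1 out also has fewer libraries, and the cause of these changes was not tested. The ratio difference ran from 0.237 to 1.43 with 1 library left out. Deviations of same-numbered libraries correlated at -0.196, -0.092 and 0.063, and 0 of 3 controls matched its own number best. With 3 libraries per group, whose deviations also followed GC content, these values cannot show whether the numbers stand for a pairing. The labels give only the number. With 3 libraries per group, wide spreads as in Mmp12 limit what can be called.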
